A study of Mus musculus with 25 samples.

Results

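The microRNA precursors mir-21a and mir-22 (rows mmu-mir-21a and mmu-mir-22) were examined in 25 small RNA libraries from mouse blood, as 2 of the 1193 precursors in the deposited count table. Both were taken by name, over all libraries, and not by a rule on their change with age. Earlier results of these data were known when they were chosen. The animals were male C57BL/6 mice, an inbred laboratory strain, and blood was taken at 2, 9, 15, 24 and 30 months of age, with no treatment or transgene in any group. Each age had 5 libraries from separately numbered animals, so n is 5 per age and 25 in all. The labels do not say which blood cells were kept, and with bulk blood RNA a change in the number of cells of a type and a change in RNA per cell cannot be told apart. The question put to these data was how far the level of each precursor in blood differs between ages, set against the spread between animals of the same age.

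MicroRNAs are cut from a hairpin precursor into short mature strands, 1 of which is loaded into an Argonaute protein and pairs with target mRNAs mainly through its seed. mir-21a is the mouse counterpart of human miR-21, which is expressed in many cell types, is induced in inflammation and many cancers, and is known to act on Pdcd4, an inhibitor of translation. mir-22 is known as a conserved microRNA of blood-forming cells, rises in maturing red cells, and acts on Tet2, an enzyme that oxidises methylated cytosine in blood stem cells.

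Reads were counted per hairpin, so both arms of a hairpin are in 1 value. The mature arms are printed because they show what those reads can be and which other precursors could give the same seed. The sequences are those of RefSeq for the mouse assembly GRCm38.p6, 5′ to 3′, with the seed (bases 2 to 8, counted from the 5′ end) in capitals.
miR-21a-5p: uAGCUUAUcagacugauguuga
miR-21a-3p: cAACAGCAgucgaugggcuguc
miR-22-5p: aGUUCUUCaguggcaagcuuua
miR-22-3p: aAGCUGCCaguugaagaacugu
miR-21c: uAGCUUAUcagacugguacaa
miR-21b: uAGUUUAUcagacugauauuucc

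The hairpins lie on the same chromosome, 11.1 Mb apart. That of mir-21a is at chr11:86584067-86584158 on the minus strand of GRCm38.p6, where GENCODE vM21 places exon 12 of the protein-coding gene Vmp1, within its 3′ untranslated region and on the same strand. The mir-22 hairpin is at chr11:75463716-75463810 on the plus strand, in exon 2 of its non-coding host transcript Mir22hg and of a processed transcript of Tlcd2. These positions are those of the reference, since no source used here names the authors' build.

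No arm of mir-21a shares a seed with an arm of mir-22. The match did not hold every arm. For mir-532, for example, it held only the 3′ arm, so a seed in an arm not matched would be missed. Of the 1020 precursors in the table with a matched mature sequence, 1 had a matched arm sharing a seed with either. This was mir-21c, a mouse relative with the seed AGCUUAU of miR-21a-5p. Its mature sequence has the same first 15 bases as miR-21a-5p, and the first difference, counted from the 5′ end of miR-21a-5p, is A16G. The first difference of mir-21b is C4U, inside the seed. Both mir-21b and mir-21c had 0 counts in every library, which allows each up to 0.614 counts per 1000000 counts of the library (CPM) where depth was least and 0.124 CPM where it was greatest, taking 3 counts as the limit. The precursor mir-590, for which no arm with the seed AGCUUAU was matched, also had 0 counts in every library. Whether reads fitting more than 1 precursor were counted for each is not stated.

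Library totals ran from 4.88 to 24.3 M (units of 1000000) counts with a median of 15.4 M. They were 16.2 to 22.2 M at 2 months and 5.75 to 13.1 M at 30 months, so depth moves with age. The red cell list held 77.2% to 78.1% of counts at 2 months and 73.9% to 78.7% at 30 months; mir-486a and mir-486b, and mir-451a and mir-451b, have nearly equal counts in every library and may share reads. Levels below are CPM on library sizes scaled by trimmed mean of M-values (TMM) factors. Changes were tested with edgeR's quasi-likelihood test, adjusted by Benjamini-Hochberg over all precursors kept by its default filter, with a threshold of 0.05.

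mir-22 was among the most abundant precursors at every age and held its place. Its rank was 5 in every library but 24 months replicate 2, where it was 6, with mir-486b and mir-451b counted as rows of their own. Its counts ran from 297236 to 765638, where counting error is at most 0.183% of the count. At 2 months its levels in the 5 libraries were 42815, 31680, 37309, 38760 and 35382 CPM. At 9 months they were 31050, 35304, 36252, 33552 and 35193 CPM, the narrowest group. At 15 months they were 34393, 35097, 32774, 37032 and 40489 CPM. These 3 groups lie over each other, with no library of mir-22 apart from the rest.

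At 24 months the levels of mir-22 were 32547, 32175, 28094, 52267 and 34321 CPM, and this group holds both the lowest and the highest of all 25 values. The highest, replicate 4, is also the library with the fewest counts, at 4.88 M. At 30 months they were 38031, 31739, 42476, 33172 and 36988 CPM. The means were 37189 ± 4116 CPM at 2 months, 34270 ± 2045 at 9 months, 35957 ± 2958 at 15 months, 35881 ± 9440 at 24 months and 36481 ± 4244 at 30 months (SD over 5 libraries). Without replicate 4 the mean of mir-22 at 24 months was 31784 ± 2632 CPM (SD, n = 4). The ranges of mir-22 overlapped in 10 of 10 pairs of ages, with replicate 4 kept in the 24-month range. How often the ranges of other precursors overlap was not counted, so this is a description only.

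mir-21a was less abundant and less even, with a mean of 5888 ± 1552 CPM against 35956 ± 4878 for mir-22 (SD, n = 25). Its counts ran from 30693 to 180043, where counting error is at most 0.571% of the count, and its rank ran from 12 to 19. At 2 months its levels were 4726, 3988, 8323, 6880 and 6363 CPM. At 9 months they were 5674, 7400, 5364, 6189 and 4566 CPM. At 15 months they were 6882, 6169, 7707, 5738 and 3009 CPM, with replicate 5 below the rest. In all 3 groups the highest library stood well above the lowest.

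At 24 months the levels of mir-21a were 7814, 3182, 6846, 5397 and 7470 CPM, with replicate 2 low. At 30 months they were 6928, 2922, 6364, 4303 and 7003 CPM, again with replicate 2 low. The means were 6056 ± 1729 CPM at 2 months, 5839 ± 1053 at 9 months, 5901 ± 1781 at 15 months, 6142 ± 1896 at 24 months and 5504 ± 1811 at 30 months (SD over 5 libraries). As for mir-22, ranges overlapped in 10 of 10 pairs of ages, which is again a description only.

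**Figure D1:**
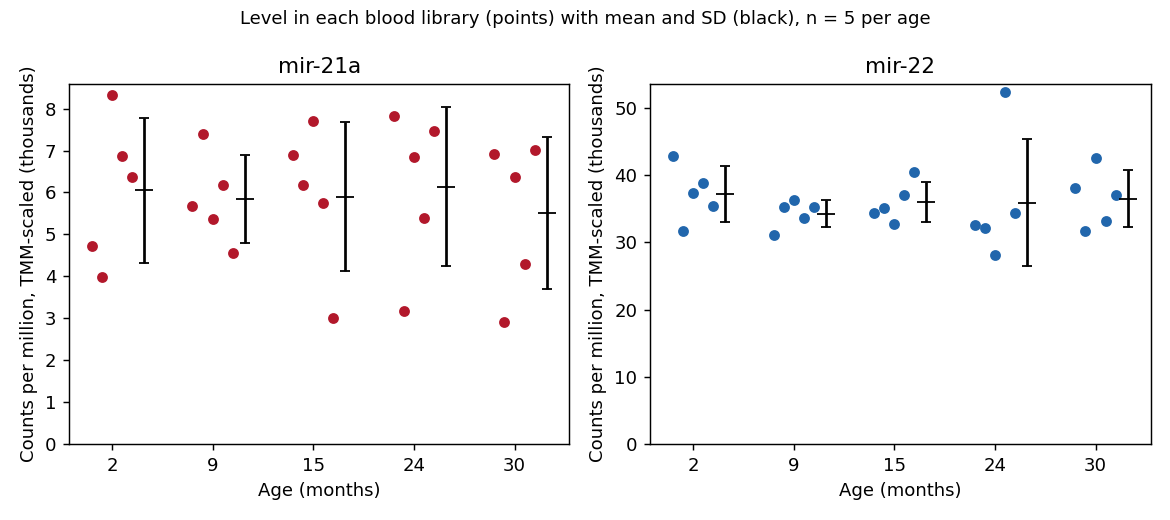
Level of mir-21a (left) and mir-22 (right) in each blood library, in TMM-scaled CPM on an axis in units of 1000, by age in months; each point is a library and the black bar is the mean with SD (n = 5). Points of mir-21a spread from 2922 to 8323 CPM with low libraries at 15, 24 and 30 months, and those of mir-22 stay between 28094 and 42815 CPM apart from 1 library of 24 months at 52267 CPM.

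In order of mean level, mir-22 ran 2, 30, 15, 24 and 9 months, and mir-21a ran 24, 2, 15, 9 and 30 months. No 2 neighbours in either order differed beyond their spread. The test for a difference between any of the 5 ages gave an adjusted p = 0.985 for mir-21a and an adjusted p = 0.980 for mir-22 (edgeR), while 7.99% of all tested precursors passed it. Age accounted for 2.08% of the variance of log2 CPM between libraries in mir-21a and 4.84% in mir-22. The median over the 152 precursors with a mean of at least 10 CPM was 21.2%. Means of 5 groups take up part of the variance even where age has no effect, so these shares are not effect sizes.

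Between 2 and 30 months, the longest span, the log2 change was −0.03 for mir-22 (SE 0.13, edgeR adjusted p = 0.917). For mir-21a it was −0.14 (SE 0.27, edgeR adjusted p = 0.779). The 95% intervals bound what these data allow under TMM scaling with all libraries. For mir-22 the interval runs from 0.813-fold to 1.18-fold, and for mir-21a from 0.619-fold to 1.33-fold. In this comparison 14.2% of tested precursors passed, 9.17% higher and 5.03% lower, at a median log2 change of −0.04 over all of them. Changes of either member within these bounds remain compatible with the data from 5 animals per age, and no detection limit was computed.

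The earlier ages gave the same picture against 2 months. For mir-22 the log2 changes were −0.12 at 9 months (SE 0.13, adjusted p = 0.851), −0.05 at 15 months (SE 0.13, adjusted p = 0.931) and −0.05 at 24 months (SE 0.13, adjusted p = 0.868). Without 24 months replicate 4, the high library, the mir-22 value at 24 months was −0.22 (SE 0.10, unadjusted p = 0.0328, edgeR adjusted p = 0.140). mir-21a had −0.05 at 9 months (SE 0.27, adjusted p = 0.963), −0.04 at 15 months (SE 0.27, adjusted p = 0.976) and 0.02 at 24 months (SE 0.27, adjusted p = 0.972). The share of all precursors that passed was 2.07% at 9 months, 1.48% at 15 months and 12.1% at 24 months. These comparisons share the 2-month libraries and are not independent of each other.

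Between consecutive ages neither precursor passed. mir-22 changed by 0.07 log2 units from 9 to 15 months (SE 0.13, adjusted p = 0.997), by −0.0031 from 15 to 24 months (SE 0.13, adjusted p = 0.993) and by 0.02 from 24 to 30 months (SE 0.13, adjusted p = 0.960). Without 24 months replicate 4 the last 2 values of mir-22 were −0.20 (SE 0.10, unadjusted p = 0.0489, edgeR adjusted p = 0.441) and 0.20 (SE 0.10, unadjusted p = 0.0516, edgeR adjusted p = 0.614). The values of mir-21a were 0.02 (SE 0.27, adjusted p = 0.997), 0.06 (SE 0.27, adjusted p = 0.984) and −0.16 (SE 0.27, adjusted p = 0.917). Over all precursors 0%, 2.07% and 0% passed in these 3 comparisons. Where 0 passed by edgeR, DESeq2 and limma-voom also called 0, and 7 and 13 precursors had an unadjusted p under 0.05 by edgeR.

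**Figure D2:**
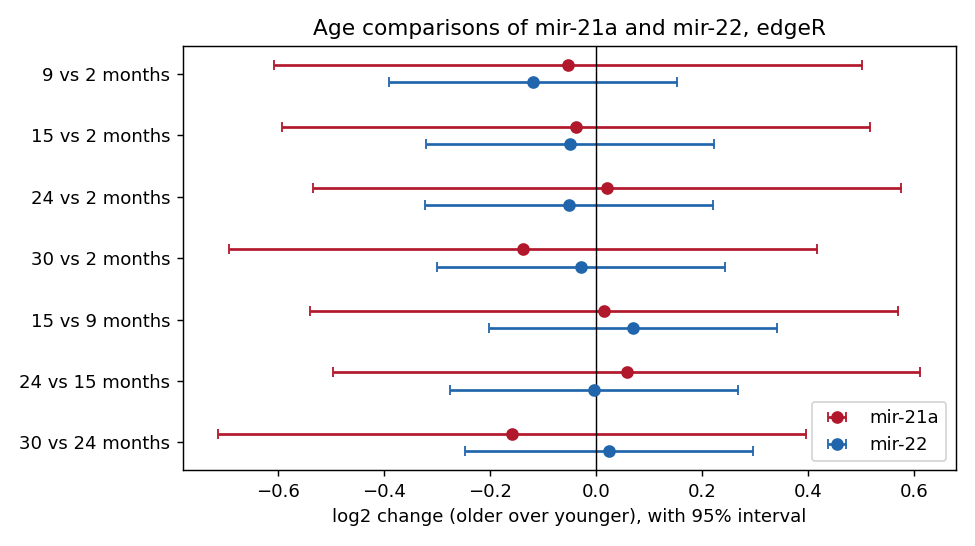
Log2 change of mir-21a (red) and mir-22 (blue) in 7 comparisons of ages, older over younger, with 95% intervals from the edgeR fit. All 14 intervals cross 0, and those of mir-22 are narrower than those of mir-21a.

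Over the whole span the slope of mir-22 was 0.0010 log2 units per 10 months (SE 0.04, adjusted p = 0.989) and that of mir-21a was −0.03 (SE 0.08, adjusted p = 0.853). The 95% interval of the slope of mir-22 runs from −0.08 to 0.08, and that of mir-21a from −0.19 to 0.14. In the same test 19.8% of precursors passed, 10.7% with higher and 9.17% with lower levels at older age. Neither member passed in any of the 9 comparisons made. In this main edgeR fit, with TMM factors and all libraries, every unadjusted p of the members was 0.374 or above.

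The direction of these small values depends on the scaling. With library totals in place of TMM factors the log2 change at 30 against 2 months was 0.23 for mir-22 (adjusted p = 0.350) and 0.11 for mir-21a (adjusted p = 0.886). That scaling also moved the median of all tested precursors, to 0.20 at 30 months and to 0.36 at 24 months. The values of the members at 30 months therefore lie near the median of all precursors under either scaling. The share of raw counts held by mir-22 was 3.31% ± 0.309 in the youngest and 3.89% ± 0.853 in the oldest mice (SD, n = 5 per age). That of mir-21a was 0.545% ± 0.177 and 0.590% ± 0.226. The lowest adjusted p over all settings was that of the mir-22 slope with library totals. It was 0.11 log2 units per 10 months (edgeR unadjusted p = 0.0276, adjusted p = 0.0849), where the median of all precursors was 0.09.

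Libraries were run in lanes 3 to 8 of a sequencer, as the column names give them. Of these, 4 lanes held libraries of both 2 and 30 months. Within them the log2 difference of mir-22 was 0.07, 0.0076, −0.29 and 0.26, and that of mir-21a was 0.11, −0.26, −1.24 and 0.00017, in lanes 5 to 8. Each sets 1 library of 30 months against 1 of 2 months, except lane 6 with 2 against 1, so these are differences between single animals. The −1.24 comes from 30 months replicate 2, the library lowest in mir-21a. With lane as a term in the fit, the change was 0.0025 for mir-22 (adjusted p = 0.984) and −0.17 for mir-21a (adjusted p = 0.778). Index sequence follows age in most libraries, so the index and the age cannot be told apart.

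The members also differed in how much they varied between animals of the same age. The coefficient of variation (SD over mean) of mir-21a exceeded that of mir-22 in 5 of 5 ages. For mir-21a it was 28.6%, 18.0%, 30.2%, 30.9% and 32.9% from the youngest to the oldest age. For mir-22 it was 11.1%, 5.97%, 8.23%, 26.3% and 11.6%, and the 26.3% at 24 months becomes 8.28% without replicate 4. In the edgeR fit the biological coefficient of variation was 30.3% for mir-21a and 16.8% for mir-22, against a median of 19.1% over the 38 precursors with a mean above 1000 CPM. Of those 38, 30 varied less than mir-21a and 5 varied less than mir-22.

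The highest level of mir-21a was 2.85 times its lowest, and that of mir-22 1.86 times its lowest. Both spreads are far above counting error. Across the 25 libraries the level of mir-22 showed no relation to that of mir-21a (Pearson r = 0.0155, permutation p = 0.939; Spearman rho = 0.0831, permutation p = 0.692), and r was 0.0263 without the 2 libraries farthest from the median in mir-21a. The r of 0.0155 becomes 0.538 when both are scaled by library totals, a setting in which each value shares its denominator.

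Against the library total, mir-22 had r = −0.516 (permutation p = 0.0108, adjusted p = 0.0324 over the 3 relations examined) and rho = −0.183 (permutation p = 0.380). Without 24 months replicate 4 and 30 months replicate 3, the shallowest libraries, r was 0.0409, so the r of −0.516 rests on those libraries. With deviations from the age means r was −0.704 over all libraries, and this value was not recomputed without those libraries. For mir-21a r was 0.150 (permutation p = 0.480) and rho was 0.268 (permutation p = 0.193), and r was 0.282 without the same pair.

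The ratio of the members within a library needs no scaling, so it was taken as a second measure. mir-22 gave a median of 5.63 counts per count of mir-21a, from 4.10 in 24 months replicate 3 to 13.5 in 15 months replicate 5, a span of 3.28 times. At 2 months the ratios were 9.06, 7.94, 4.48, 5.63 and 5.56. Those of 9 months were 5.47, 4.77, 6.76, 5.42 and 7.71, and those of 15 months were 5.00, 5.69, 4.25, 6.45 and 13.5. Libraries above and below 5.63 were found at each of these ages.

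At 24 months the ratios were 4.17, 10.1, 4.10, 9.68 and 4.59, with 2 libraries near 10 and 3 near 4. At 30 months they were 5.49, 10.9, 6.67, 7.71 and 5.28. The mean log2 ratio was 2.66 at 2 months and 2.80 at 30 months, a difference of 0.14 (exact two-sided permutation p = 0.651, adjusted p = 0.968 over 7 comparisons). The other 6 comparisons of ages gave differences from −0.09 to 0.22 with exact permutation p from 0.540 to 0.968, and an adjusted p = 0.968 throughout. With 5 against 5 libraries the smallest p this test can give is 0.00794.

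**Figure D3:**
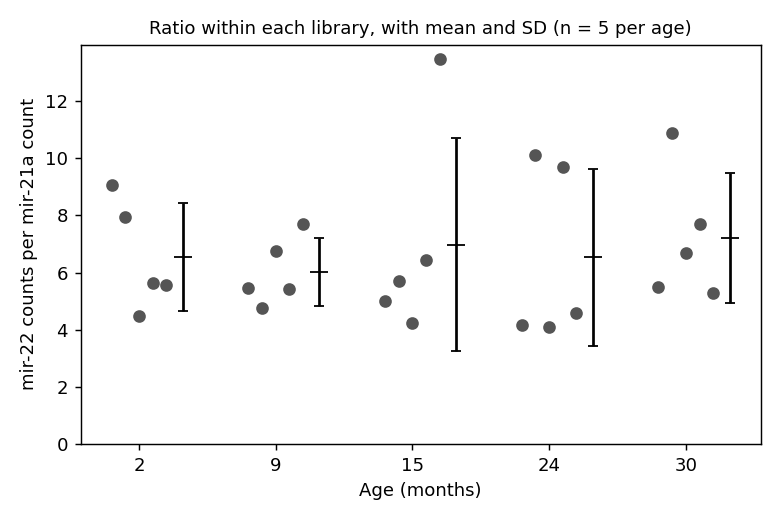
Counts of mir-22 per count of mir-21a in each library, by age in months; points are libraries and black bars the mean with SD (n = 5). Most libraries lie between 4.10 and 7.94, and the 5 above 9 are spread over 2, 15, 24 and 30 months.

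Likeness was measured as Pearson's r of log2 CPM over the 25 libraries among 150 other precursors with a mean of at least 10 CPM, as a description, since these values share library, depth and scaling. Most like mir-21a were mir-872 (r = 0.937), mir-301a (r = 0.934), which lies in the mir-130 and mir-301 seed family, and mir-15a (r = 0.928), known for acting on the survival gene Bcl2. In all, 15 of the 150 had an r above 0.8 with mir-21a and 0 with mir-22. These counts depend on the scaling, at 33 and 4 with library totals, and were 26 and 0 on deviations from the age means. Taking deviations from the age means, the 3 values were 0.943, 0.961 and 0.942, so the likeness lies within ages.

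The levels behind these r values are given as a description, since the precursors were chosen by their r with mir-21a over the same libraries. The 3 libraries lowest in mir-21a are of different ages and lanes. mir-301a stood at 24.3 CPM in 30 months replicate 2, 41.4 in 24 months replicate 2 and 51.7 in 15 months replicate 5, against 72.96 to 298 in the other 22 libraries. mir-15a stood at 404, 518 and 597 CPM in them, against 823 to 2456 in the others, and mir-872 at 15.7, 14.4 and 20.3 CPM against 21.04 to 38.5. mir-22, which was not chosen in that way, stood at 31739, 32175 and 40489 CPM in the same libraries against 28094 to 52267 elsewhere. Without these 3 libraries the r with mir-21a, recomputed after seeing the data, was 0.893 for mir-872, 0.856 for mir-301a and 0.823 for mir-15a.

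**Figure D4:**
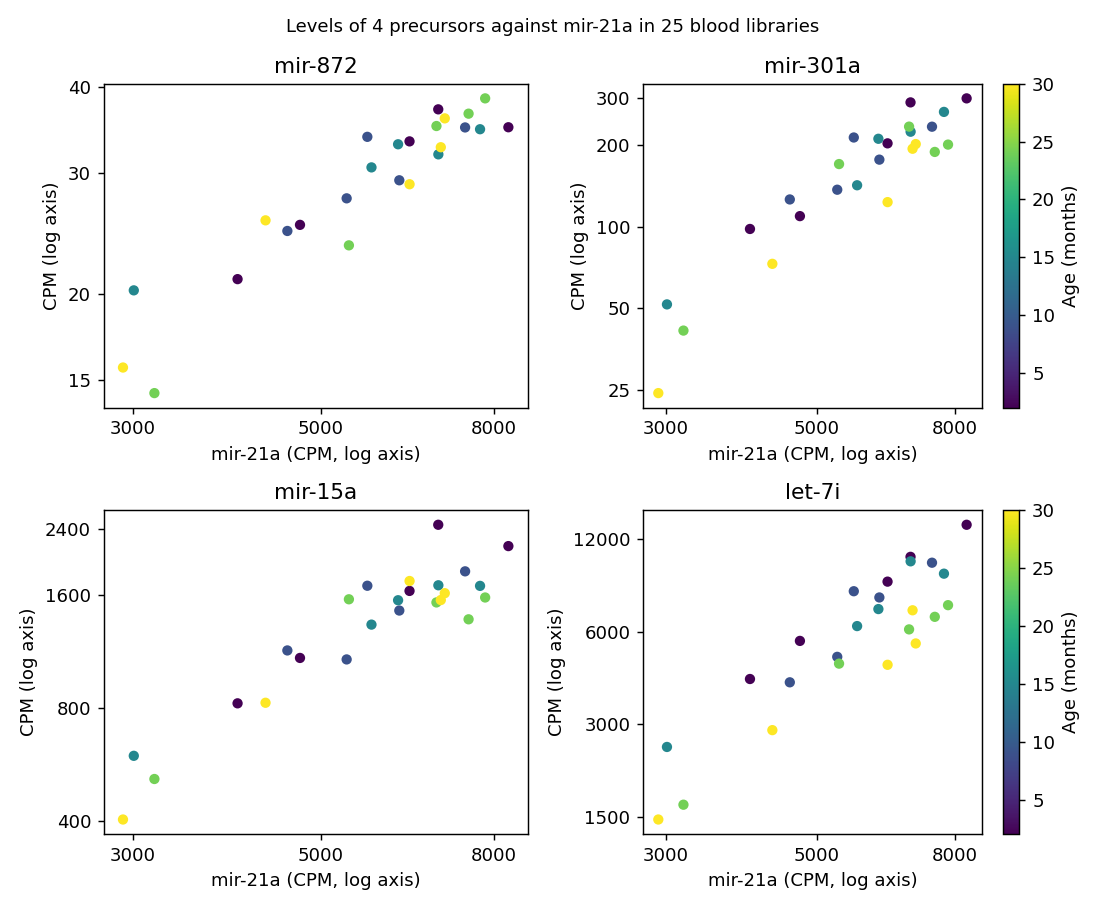
Levels of mir-872, mir-301a, mir-15a and let-7i against that of mir-21a in the 25 libraries, in TMM-scaled CPM on log axes, coloured by age in months. The 3 libraries lowest in mir-21a, at 2922 to 3182 CPM, are the lowest 3 in each panel.

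Precursors next to mir-21a in mean level did not vary alike. let-7i, of the let-7 family that rises with cell differentiation, averaged 6422 ± 2928 CPM (SD, n = 25) and had an r of 0.900 with mir-21a. mir-30d averaged 7268 ± 951 CPM and had an r of −0.691, which was −0.00015 with library totals, so the size of this r rests on the scaling. mir-21a was the higher of the pair in 12 of 25 libraries against let-7i, in 7 against mir-30d and in 19 against mir-192, which averaged 4250 ± 900 CPM. mir-93, of the Mcm7 intron cluster, lay below mir-21a in 25 of 25 libraries, at 2820 ± 994 CPM (r = 0.836).

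mir-22 had its nearest neighbours well apart. mir-451a, the red cell microRNA that is processed by Argonaute, averaged 85134 ± 14976 CPM (SD, n = 25) and stood above mir-22 in every library. mir-92a-1, of the mir-17-92 cluster, averaged 27076 ± 2562 CPM and lay below mir-22 in 24 of 25 libraries, and mir-25 averaged 22320 ± 2704 CPM and lay below it in 25. Most like mir-22 were mir-532 (r = 0.757) and the copies mir-194-2 (r = 0.712) and mir-194-1 (r = 0.648), which give the same mature 5′ arm and may share reads. At 30 against 2 months mir-532 had a log2 change of 0.25 (SE 0.17, adjusted p = 0.352).

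Likeness to mir-21a varied with base composition. Among the 139 precursors with mature sequences matched, of 150, the r with mir-21a ran against the GC content of the mature arms, with r = −0.470 across precursors. The 46 of lowest GC content, at most 44.3%, had a median r with mir-21a of 0.533, and the 47 of highest, at least 52.4%, had a median of −0.354. For mir-22 the same correlation was −0.244, with medians of 0.115 and −0.0360. miR-21a-5p itself has 36.4% GC, miR-21a-3p 59.1%, miR-22-5p 40.9% and miR-22-3p 45.5%. As the mean over the arms, the measure used for the other precursors, mir-21a has 47.7% and mir-22 43.2%. On it mir-21a lies between the bounds of 44.3% and 52.4%, and mir-22 below 44.3%. Precursors are not independent replicates, and copies of 1 microRNA enter more than once. With library totals the value for mir-21a was −0.453, and with deviations from the age means −0.490, both chosen after seeing the data.

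**Figure D5:**
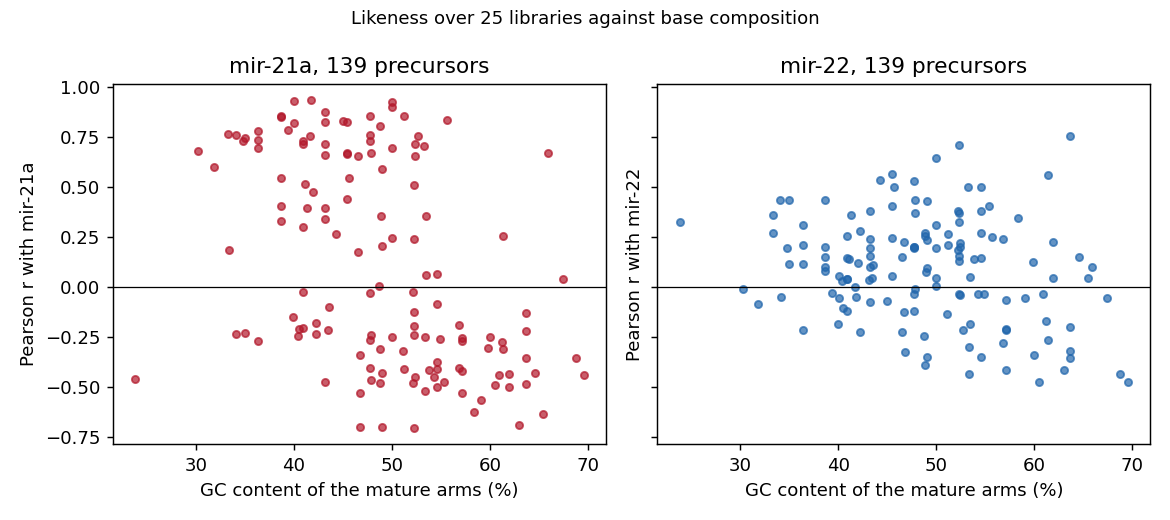
Pearson's r with mir-21a (left) and mir-22 (right) over 25 libraries for 139 other precursors, against the mean GC content of their mature arms in percent; each point is a precursor. Precursors of low GC content mostly lie above 0 for mir-21a and those of high GC content mostly below it, while the cloud for mir-22 is flatter.

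Cell type lists were measured beside the members, and their part in the levels of mir-21a and mir-22 was not tested. Over all tested precursors 9.17% were called higher and 5.03% lower at 30 against 2 months. Of the 15 red cell members 1 fell at 30 against 2 months, mir-144 (log2 change −1.41, SE 0.35, adjusted p = 0.0101), a count near the 5.03% of all precursors, while mir-451a had −0.21 (SE 0.14, adjusted p = 0.347). Of the 8 myeloid members 5 rose, led by mir-223, known from neutrophils (log2 change 1.44, SE 0.17, adjusted p = 1.65e-06), and mir-23a (0.90, SE 0.17, adjusted p = 6.58e-04). The inflammation list, which shares mir-223, mir-146a, mir-155 and mir-132 with it, had 4 of 8 tested members up, with mir-132 at 0.50 (SE 0.14, adjusted p = 0.0229). mir-21a, itself often listed as an inflammation microRNA, had −0.14 in the same fit.

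Of 10 lymphocyte members 0 passed by edgeR at 30 months, where 2 had an unadjusted p under 0.05, DESeq2 called 1 and limma-voom 0. The leading values were those of mir-31 (−0.76, SE 0.29, adjusted p = 0.0762) and mir-181a-2 (−0.33, SE 0.16, adjusted p = 0.180). Of 8 platelet and endothelial members 1 rose and 3 fell, where 9.17% and 5.03% of all precursors did. Among those that fell were mir-199a-1 (−1.66, SE 0.39, adjusted p = 0.00755) and mir-126a (−1.35, SE 0.34, adjusted p = 0.0101). They average only 1.18 and 12.9 CPM at 2 months. The 8 together held 0.0950% to 0.128% of counts at 2 months and 0.124% to 0.172% at 30 months, so their summed share was not lower in the oldest mice. Of 6 tested members of the list of other tissues 1 rose, mir-203 of skin (1.66, SE 0.15, adjusted p = 1.25e-08), and 1 fell, mir-205 (−1.004, SE 0.33, adjusted p = 0.0426). These other-tissue precursors together held at most 0.0219% of counts at 2 months and 0.00870% at 30 months. The median log2 change was −0.30 for the red cell, 0.74 for the myeloid, 0.73 for the inflammation, −0.10 for the lymphocyte, −0.94 for the platelet and −0.74 for the other-tissue list, against −0.04 over all tested precursors.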

How the data were processed

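The authors sequenced small RNA of mouse blood; the library kit was Illumina's TruSeq small RNA kit, as the labels' protocols state. Values are raw read counts per precursor in 1 table as the authors deposited it, with no normalization. The submitters' processing notes list bcl2fastq 1.8.4, Trimmomatic 0.36 and SAMtools 1.3.1-9. No source used here gives an aligner, a counter, a genome build or the use of strand. Without molecular identifiers, floors and counting errors cover counting only. RefSeq sequences were matched to 1020 of 1193 precursors by symbol or mature name.

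Tests used edgeR 4.0.16 in R 4.3.3 (TMM factors, default filter by age, robust fit over 25 libraries, 20 residual degrees of freedom for the intervals) and were checked on simulated data. Alternatives used DESeq2 1.42.0, limma 3.58.1, other factors and filters, lane as a term and leaving out each library. Likeness used log2 of CPM plus 0.5, and relations 100000 permutations. No libraries of the same age matched within sampling noise (smallest chi-square per degree of freedom 65.6). The labels number the animals separately.

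Named precursors are the 2 members, those sharing a seed, the 2 next above and below each in mean CPM, the 3 of highest r with each, and up to 2 of each list by any-age adjusted p. The members, lists and tests were chosen with earlier results of these data known. One further list of precursors is not reported here.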

Additional observations from a re-analysis of the deposited data

Results flagged for a closer look

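The mir-22 level of 24 months replicate 4 was 52267 CPM, far from the other 4 libraries of that age, which lay between 28094 and 34321 CPM. This library has the fewest counts, at 4.88 M, and the part of depth in the value was not tested. The ratio of mir-22 to mir-21a was 13.5 in 15 months replicate 5, against 4.25 to 6.45 in the others of that age. In it mir-21a was at 3009 CPM and mir-22 at 40489 CPM. A value was flagged where its gap to the next value exceeded 0.71 of the range of its group (Dixon's rule). Over the 15 groups of 5 libraries examined, 2 held such a value, where chance gives about 1 in 20. The groups are not independent, since the ratios are built from the counts of mir-21a and mir-22 in the same libraries.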

How the results depend on the processing

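No setting brought mir-21a or mir-22 past the threshold in any of the 9 comparisons, over 180 values from other settings and 240 with 1 library left out, at adjusted p from 0.0849 up. Signs turned in 27 and 50 of these values, and the cause was not tested. The any-age results are among the 180 and 240 but have no sign that could turn. The values that turned follow as log2 changes. With library totals mir-21a gave 0.075 at 9, 0.11 at 15 and 0.11 at 30 against 2 months, and a slope of 0.087, and mir-22 gave 0.091 at 15, 0.32 at 24 and 0.23 at 30 against 2 months, 0.22 at 24 against 15 and −0.081 at 30 against 24 months. Without a filter mir-21a gave 0.050 at 15 against 2 and −0.035 at 24 against 15 months, and mir-22 0.046 at 15 against 2 months and a slope of −0.010. At 15 against 9 months mir-21a gave −0.031 by limma-voom and −0.020 with upper quartile factors. With the latter mir-22 gave 0.055 at 24 against 15 and 0.023 at 30 against 2 months, and with a filter of 10 CPM 0.047 at 24 against 15, 0.0081 at 24 against 2 and −0.015 at 30 against 24 months. Fitted on the compared libraries alone, mir-22 gave 0.0077 at 30 against 2 and −0.0028 at 30 against 24 months, and with lane in the fit 0.0025 at 30 against 2 months. Its slope was −0.0058 by DESeq2 and with DESeq2 size factors, −0.0061 by limma-voom and −0.0076 on log2 of age.

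With each library left out in turn, mir-21a ran from −0.15 to 0.10 (9 against 2), −0.10 to 0.16 (15 against 2), −0.051 to 0.25 (24 against 2), −0.21 to 0.079 (30 against 2), −0.051 to 0.20 (15 against 9), −0.12 to 0.24 (24 against 15) and −0.32 to 0.024 (30 against 24 months), with a slope of −0.040 to 0.036. In the same order mir-22 ran from −0.14 to −0.054, −0.056 to 0.042, −0.22 to 0.059, −0.040 to 0.079, 0.040 to 0.15, −0.20 to 0.062 and −0.028 to 0.20, with a slope of −0.020 to 0.037. The log2 ratio ran from −0.22 to 0.039, −0.26 to 0.16, −0.27 to 0.057, −0.025 to 0.27, −0.17 to 0.25, −0.28 to 0.18 and 0.054 to 0.40, with no p past the threshold.

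Counts of precursors called, on which the background shares rest, moved more. With 1 library left out they ran from 14 to 33 for any age (27 with all), 3 to 7 at 9 (7), 3 to 4 at 15 (5), 23 to 36 at 24 (41) and 32 to 49 at 30 against 2 months (48), 1 to 7 at 24 against 15 months (7) and 43 to 71 for the slope (67). At 30 against 2 months 48 became 15 without a filter and 30 on the compared libraries alone, and with library totals 51 of 57 were higher in place of 31 of 48. At 24 against 2 months 41 became 72 with library totals (69 higher, in place of 26) and 24 with upper quartile factors, with no filter and with that of 10 CPM. At 24 against 15 months 7 became 16 with library totals, 2 with upper quartile factors and with TMM factors taken without mir-486a, mir-486b and mir-451a, 1 without a filter and 0 on the compared libraries alone, where 24 had an unadjusted p under 0.05. At 15 against 2 months 5 became 3 with library totals, the filter of 10 CPM, limma-voom or lane, and 2 on the compared libraries alone. At 9 against 2 months 7 became 4 with upper quartile factors or lane. The slope called 67, and 9 without the 2-month libraries, 39 without a filter, 42 with a filter of 10 CPM and 89 with library totals (80 higher, in place of 36). Any age called 27, and 44 with library totals, 17 without a filter and 16 with lane. No paired analysis was possible because the replicate numbers follow the order of deposit and the animals differ between ages. With 5 libraries per age, the intervals above give the range of changes that these data allow under TMM scaling with all libraries. Other settings move them, as for mir-22 at 30 against 2 months with library totals (0.23, SE 0.16).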
